A study of Homo sapiens with 28 samples.

Results

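Messenger RNA of 41 human genes of DNA replication and of the supply of its building blocks, the deoxynucleotides, was followed in HepG2, an established line of human liver cancer cells. The genes were chosen by name for their role, with earlier results of these data known. They were found in the count table by gene identifier and symbol. They are 41 of the 63139 genes in the table, and all 41 passed the low-count filter that left 18849 genes for testing. By role they comprise 11 genes of origin licensing, 8 of helicase activation, 8 of polymerases and primase, 8 of the sliding clamp, its loader, single-strand binding and Okazaki fragment processing, 4 of nucleotide supply and 2 E2F transcription factors.

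The 28 libraries fell into 7 groups of 4, and all of them came from cells starved of serum for 24 h before the 24 h exposure. Water was the control of cadmium chloride (CdCl2) at 0.5 µM. DMSO was the control of the dioxin TCDD at 100 nM, the perfluorinated surfactant PFOS at 10 µM, the plastic monomer bisphenol A (BPA) at 75 µM and the organotin tributyltin chloride (TBTCl) at 0.1 µM. The labels describe 4 independent experiments, without tying equal replicate numbers of different groups to the same one, and each compound was sequenced at 1 dose and 1 time. The TCDD and PFOS labels are those after an exchange recorded in the series text. CYP1A1, the classic target of the receptor that TCDD binds, lay between 2839 and 6407 CPM in the libraries labelled TCDD and between 1.49 and 16.1 CPM in those labelled PFOS.

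Depth ran from 28.9 M to 66.0 M counts per library, with a median of 46.5 M. Levels are given as CPM, counts scaled to library size with TMM factors, and 3 counts in a library corresponded to 0.0454 to 0.104 CPM, a floor that covers counting error only. All 8 hepatocyte markers, among them the genes of albumin and apolipoprotein B, passed the filter, with a summed level of 35093 to 65055 CPM in DMSO and 24616 to 38594 CPM in BPA. The mean of each was lower in BPA than in DMSO, except that of HNF4A. HNF4A lay at 337 to 415 CPM in DMSO and at 502 to 544 CPM in BPA. Of the markers of other cell types, 3 of 5 for stroma, 1 of 4 for leukocytes and 3 of 4 for endothelium passed. The stroma marker LUM passed with a mean of 1.01 CPM in TCDD, against 0.0116 CPM in DMSO and 0.0453 CPM in BPA, near the floor. From DMSO to BPA the summed range went from 13.4 to 21.7 CPM to 5.67 to 13.9 CPM for stroma, from 1.35 to 1.71 CPM to 5.31 to 17.1 CPM for leukocytes and from 6.29 to 7.43 CPM to 3.55 to 5.49 CPM for endothelium. The leukocyte marker PTPRC was at 0 in every DMSO and BPA library, and the 1 leukocyte marker that passed, CD14, averaged 1.44 CPM in DMSO and 10.9 CPM in BPA. The part of these markers in the results was not tested.

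Replication begins with licensing, in which the origin recognition complex (ORC) with CDC6 and CDT1 loads the ring of MCM2 to MCM7 onto DNA. The kinase CDC7 with its partner DBF4, and then MCM10, CDC45 and the GINS proteins, turn the ring into a working helicase. Primase and the polymerases alpha, delta and epsilon copy the strands while PCNA, the sliding clamp, holds delta and epsilon on. Many of these genes are transcribed at the entry into S phase by E2F factors, which the RB family holds back in resting cells. In bulk RNA, fewer cells in S phase and less RNA of these genes per cell cannot be told apart.

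Because E2F factors bind many of these genes, their promoters were read from the RefSeq promoter table (GRCh38.p14), which covers 250 bases before to 50 bases after the start and held 36 of the 41 genes. MCM4, MCM5, GINS4, POLD3 and RPA2 had no entry. The E2F motif searched was TTTCCCGC, TTTCGCGC, TTTGCCGC or TTTGGCGC on either strand, and overlapping matches were counted. It was found in 21 of the 47 windows of these genes (44.7%), which belong to 21 of the 36 genes (58.3%), against 3.31% of all 35116 windows in the table and 4.10% of 22199 windows of protein-coding genes. The median GC content was 65.0% in the windows of these genes and 62.3% in those of all protein-coding genes. CCAAT was found in 25 of 47 windows (53.2%), from 20 of 36 genes, against 34.7% of protein-coding windows. The cell cycle element TTTGAA or TTCGAA, which is not among the E2F letters, was found in 3 of 47 windows (6.38%), those of DBF4, MCM6 and RRM1, against 13.7%. A match is a description of the letters and not a binding site, and the lack of a match does not show that E2F factors do not bind.

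The 160 bases before the start are shown for 8 genes, 5′ to 3′ on the strand of the gene, with the E2F letters in capitals. GINS2, TYMS, PCNA, E2F2 and CDT1 each have 1 match in this stretch and fell with BPA. MCM6 has 4 matches, in overlapping pairs, and ORC6 and DBF4 have none, and none of these 3 genes passed the test with BPA. The 8 genes were picked without a fixed rule. Of the 15 genes with a window but no match, 12 fell with BPA, and none of those 12 is shown. The stretches are chr16:85688955-85689114 (minus strand) for GINS2, chr18:657493-657652 (plus strand) for TYMS, chr20:5126623-5126782 (minus strand) for PCNA and chr1:23531234-23531393 (minus strand) for E2F2. Those of the other genes are chr16:88803629-88803788 (plus strand) for CDT1, chr2:135876444-135876603 (minus strand) for MCM6, chr16:46689499-46689658 (plus strand) for ORC6 and chr7:87876333-87876492 (plus strand) for DBF4.
GINS2: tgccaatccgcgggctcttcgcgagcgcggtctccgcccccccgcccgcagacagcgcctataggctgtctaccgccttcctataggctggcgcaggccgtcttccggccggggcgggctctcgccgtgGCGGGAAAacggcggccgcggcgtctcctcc
TYMS: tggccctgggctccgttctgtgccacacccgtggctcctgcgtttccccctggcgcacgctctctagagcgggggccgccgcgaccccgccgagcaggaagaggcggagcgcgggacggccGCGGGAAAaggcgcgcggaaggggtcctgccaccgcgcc
PCNA: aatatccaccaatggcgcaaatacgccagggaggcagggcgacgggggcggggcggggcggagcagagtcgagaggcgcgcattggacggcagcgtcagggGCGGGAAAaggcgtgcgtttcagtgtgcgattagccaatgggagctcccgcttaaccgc
E2F2: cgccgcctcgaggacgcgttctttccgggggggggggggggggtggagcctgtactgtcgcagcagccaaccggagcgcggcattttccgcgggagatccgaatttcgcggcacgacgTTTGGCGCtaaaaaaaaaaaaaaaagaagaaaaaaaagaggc
CDT1: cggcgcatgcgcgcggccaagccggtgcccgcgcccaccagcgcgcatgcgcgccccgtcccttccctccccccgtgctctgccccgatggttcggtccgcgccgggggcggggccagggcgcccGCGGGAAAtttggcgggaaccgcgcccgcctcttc
MCM6: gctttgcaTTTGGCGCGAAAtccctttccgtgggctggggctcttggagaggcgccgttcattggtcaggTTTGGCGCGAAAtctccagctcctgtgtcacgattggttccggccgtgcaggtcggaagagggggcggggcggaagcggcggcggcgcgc
ORC6: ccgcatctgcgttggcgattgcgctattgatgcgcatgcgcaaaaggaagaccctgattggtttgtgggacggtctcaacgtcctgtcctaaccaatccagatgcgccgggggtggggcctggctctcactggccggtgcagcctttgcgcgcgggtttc
DBF4: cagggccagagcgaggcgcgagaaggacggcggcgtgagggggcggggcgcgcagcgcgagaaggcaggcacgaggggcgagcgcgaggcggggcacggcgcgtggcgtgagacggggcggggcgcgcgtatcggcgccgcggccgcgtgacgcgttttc
The first letter of the match lay 31 bases before the start in GINS2, 35 in CDT1, 39 in TYMS, 42 in E2F2 and 59 in PCNA. In MCM6 the matches began between 152 and 86 bases before the start.

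Most of these genes were lower with BPA, and none was higher. Against DMSO, 35 of 41 fell at an adjusted p under 0.05 (edgeR quasi-likelihood test, Benjamini-Hochberg adjustment over all 18849 genes), where 17.6% of all tested genes fell and 17.3% rose. The median log2 fold change of the 41 genes was -1.17, with a range of -2.39 to -0.20, and that of all tested genes was -0.02. The 4 BPA libraries lay below all 4 DMSO libraries in 23 of the 41 genes, as they did in 17.1% of all tested genes. By role, 8 of 11 licensing genes, 7 of 8 helicase genes, 6 of 8 polymerase and primase genes, 8 of 8 clamp and Okazaki genes, 4 of 4 nucleotide genes and 2 of 2 E2F genes fell. The medians by role ran from -0.96 for the clamp and Okazaki genes to -1.86 for the nucleotide genes.

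**Figure D1:**
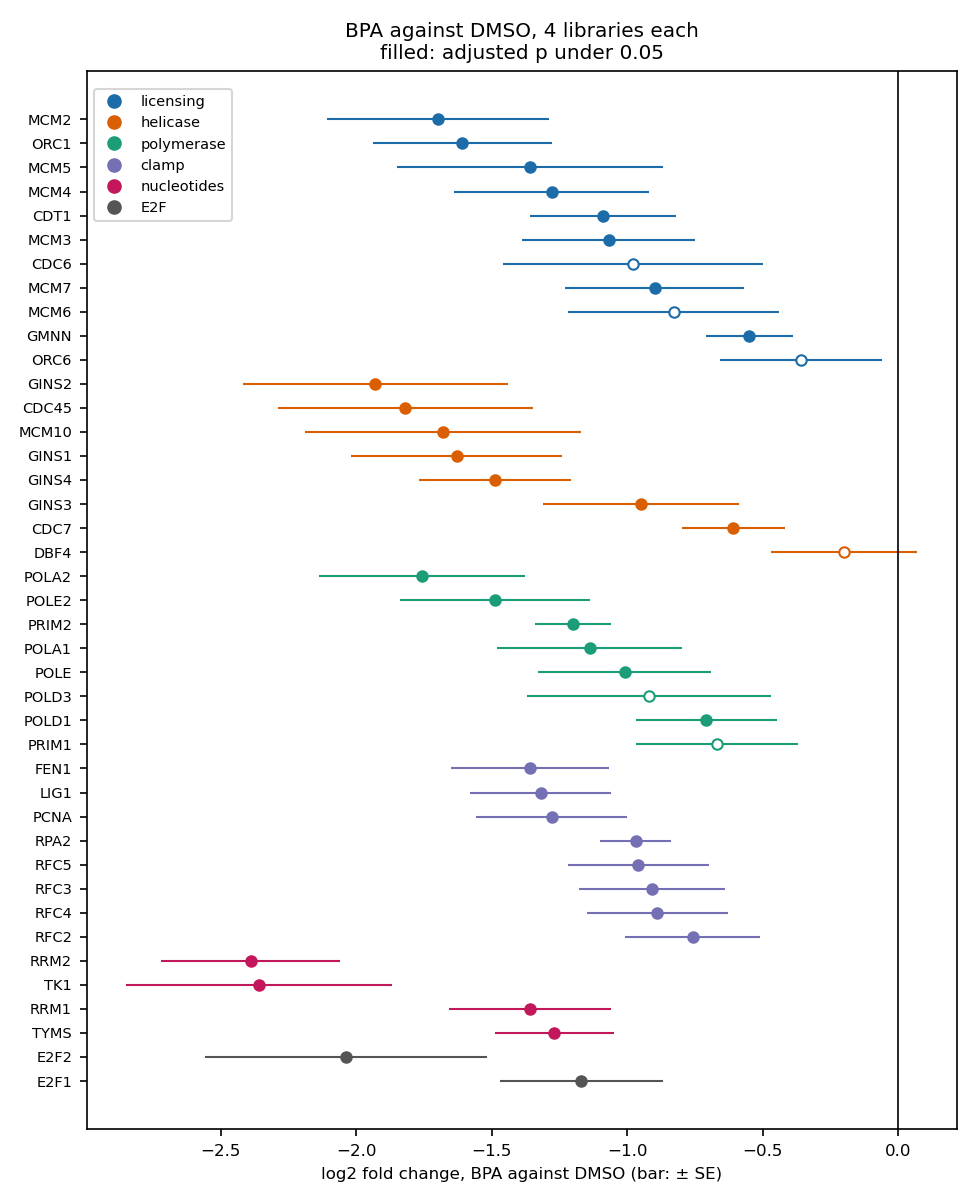
Log2 fold change of each of the 41 genes, BPA against DMSO (horizontal axis, 4 libraries a group), ordered by role and size; bars are ± SE and filled points passed an adjusted p under 0.05. All 41 points lie left of 0, from -2.39 for RRM2 to -0.20 for DBF4, and the 6 open points are CDC6, MCM6, ORC6, DBF4, POLD3 and PRIM1.

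The 2 largest falls of the 41 were those of nucleotide genes, RRM2 and TK1. RRM2, the regulated subunit of ribonucleotide reductase, which makes deoxynucleotides from ribonucleotides, read 213, 112, 77.9 and 196 CPM in DMSO replicates 1 to 4 and 33.5, 22.6, 20.8 and 37.2 CPM with BPA. The highest BPA library was below the lowest DMSO library, and RRM2 fell 5.24-fold (log2 -2.39 ± 0.33 SE, adjusted p = 6.29e-06). TK1, the thymidine kinase of the salvage route, read 82.6, 39.7, 26.9 and 98.2 CPM in DMSO and 12.6, 7.37, 7.12 and 21.0 CPM with BPA. It fell 5.12-fold (log2 -2.36 ± 0.49, adjusted p = 0.000551), again without overlap. RRM1, the large subunit of the reductase, read 80.3, 54.8, 39.9 and 91.5 CPM in DMSO and 25.9, 23.4, 19.4 and 34.9 CPM with BPA. Its fall was 2.57-fold (log2 -1.36 ± 0.30, adjusted p = 0.000917), so the reductase subunits fell by unequal amounts, a difference that was not tested. TYMS, thymidylate synthase, read 185, 136, 107 and 177 CPM in DMSO and 65.4, 56.1, 51.1 and 78.4 CPM with BPA. It fell 2.41-fold (log2 -1.27 ± 0.22, adjusted p = 8.74e-05) without overlap.

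**Figure D2:**
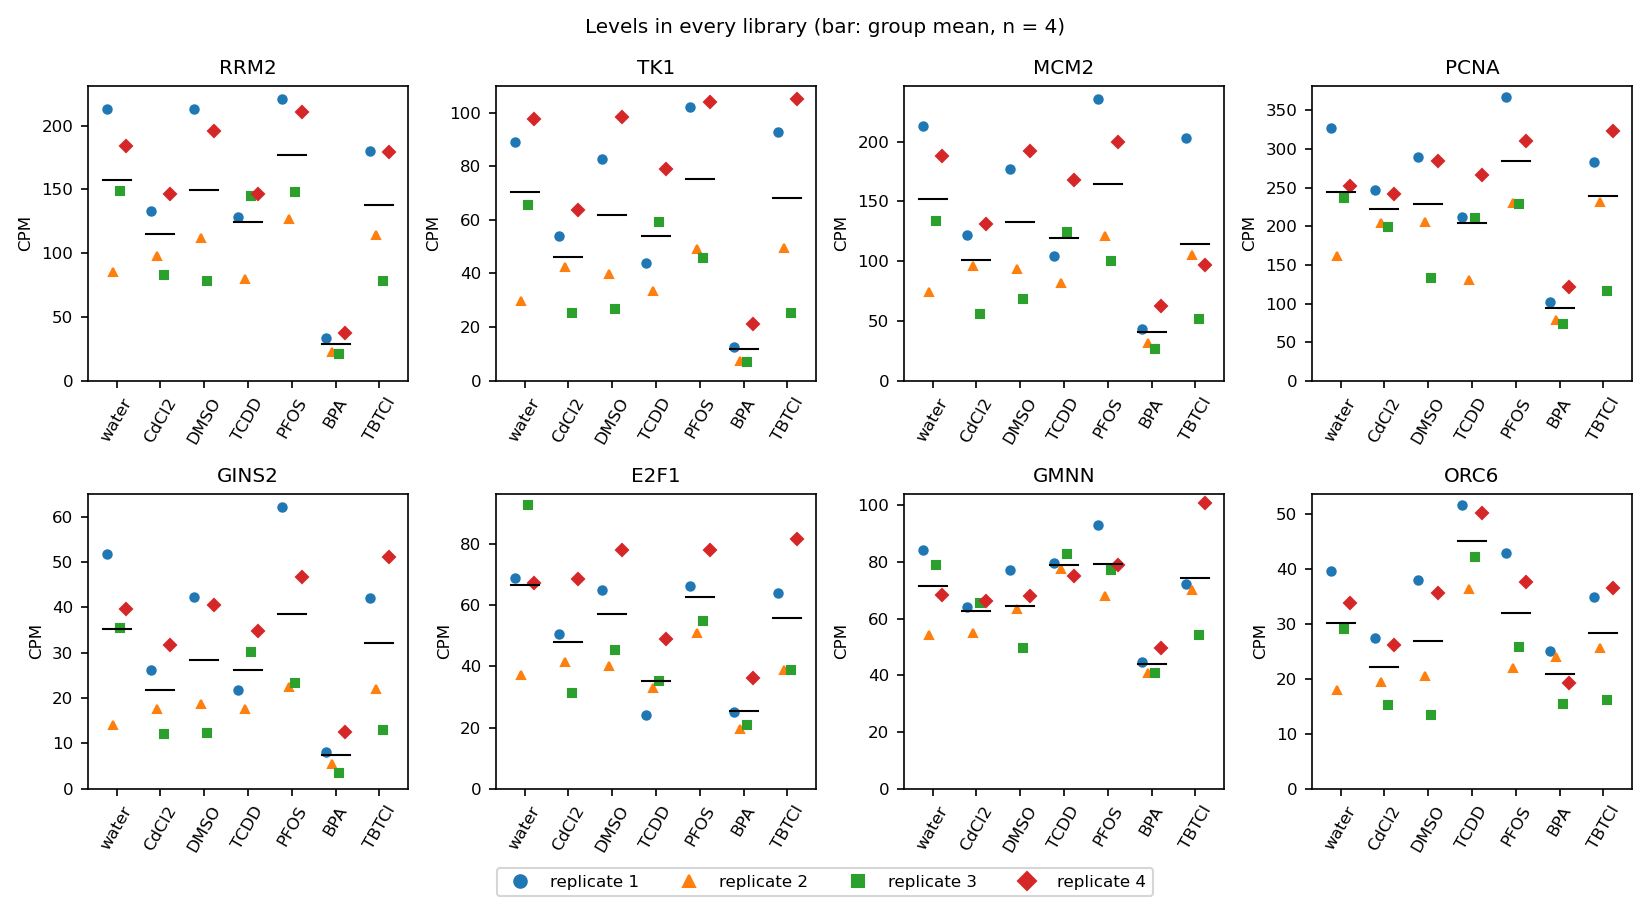
Level of 8 genes in every library (vertical axes in CPM from 0, groups on the horizontal axes); points are libraries by replicate number and bars are group means of 4. The BPA points of RRM2, TK1, MCM2, PCNA and E2F1 lie below all DMSO points, those of GINS2 and GMNN overlap DMSO in 1 library, and the highest ORC6 mean is that of TCDD, which did not pass the test.

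Among the licensing genes, MCM2 of the helicase ring read 177, 93.5, 68.3 and 192 CPM in DMSO and 43.0, 31.7, 26.2 and 62.3 CPM with BPA. It fell 3.25-fold (log2 -1.70 ± 0.41, adjusted p = 0.00220), and the groups did not overlap. ORC1, the largest ORC subunit, read 22.3, 13.6, 10.1 and 27.8 CPM in DMSO and 6.18, 5.17, 4.87 and 7.91 CPM with BPA. Its fall was 3.05-fold (log2 -1.61 ± 0.33, adjusted p = 0.000514). CDT1, which brings the MCM ring to the origin, read 73.6, 56.1, 64.1 and 116 CPM in DMSO and 32.8, 25.9, 37.2 and 49.8 CPM with BPA. It fell 2.13-fold (log2 -1.09 ± 0.27, adjusted p = 0.00260). GMNN, geminin, which blocks CDT1 after origins have fired, read 77.1, 63.5, 49.5 and 68.1 CPM in DMSO and 44.9, 40.8, 40.8 and 49.8 CPM with BPA. Its fall of 1.46-fold (log2 -0.55 ± 0.16, adjusted p = 0.00792) was the smallest of the 35, and BPA replicate 4 lay just above DMSO replicate 3.

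The ring subunits MCM3, MCM4, MCM5 and MCM7 fell by log2 values of -1.07, -1.28, -1.36 and -0.90, and each overlapped DMSO. MCM6, CDC6 and ORC6 did not pass. MCM6 read 40.1, 20.6, 14.3 and 45.8 CPM in DMSO and 16.3, 16.2, 14.3 and 21.1 CPM with BPA (log2 -0.83 ± 0.39, adjusted p = 0.0978). CDC6, which helps ORC load the ring, read 71.2, 33.7, 21.0 and 79.2 CPM in DMSO and 28.8, 28.5, 13.4 and 33.2 CPM with BPA (log2 -0.98 ± 0.48, adjusted p = 0.118). In both genes DMSO replicates 2 and 3 lay within or near the range of BPA and replicates 1 and 4 far above it. ORC6, the smallest ORC subunit, read 38.0, 20.5, 13.5 and 35.6 CPM in DMSO and 25.0, 24.0, 15.5 and 19.3 CPM with BPA (log2 -0.36 ± 0.30, adjusted p = 0.373).

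Of the helicase genes, GINS2 read 42.4, 18.6, 12.4 and 40.6 CPM in DMSO and 8.20, 5.44, 3.48 and 12.6 CPM with BPA. It fell 3.80-fold (log2 -1.93 ± 0.49, adjusted p = 0.00332), and only BPA replicate 4 reached the lowest DMSO library. GINS4 read 22.6, 19.0, 12.9 and 29.2 CPM in DMSO and 8.49, 6.66, 4.53 and 10.0 CPM with BPA, a fall of 2.81-fold without overlap (log2 -1.49 ± 0.28, adjusted p = 0.000209). The other GINS genes, GINS1 and GINS3, changed by -1.63 and -0.95 (log2), CDC45 by -1.82 and MCM10 by -1.68. The kinase pair CDC7 and DBF4 was near the other end of the range. CDC7 fell 1.53-fold (log2 -0.61 ± 0.19, adjusted p = 0.0162), whereas DBF4, its activating subunit, read 20.1, 11.3, 9.85 and 19.8 CPM in DMSO and 14.6, 14.5, 11.7 and 12.1 CPM with BPA (log2 -0.20 ± 0.27, adjusted p = 0.594). DBF4 and ORC6 were the only genes of the 41 above DMSO in any same-numbered pair, in replicates 2 and 3. The other 39 were below DMSO in all 4 pairs. Such pairs, here and below, were counted for the 41 genes alone and not over all tested genes.

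In the polymerase and primase class, PRIM2, the large primase subunit, read 18.6, 17.5, 14.5 and 18.3 CPM in DMSO and 7.87, 6.29, 6.62 and 9.12 CPM with BPA. It fell 2.30-fold (log2 -1.20 ± 0.14), with the lowest adjusted p of the 41 genes (3.28e-07) and a DMSO spread of only 1.28-fold. POLA2, the accessory subunit of polymerase alpha and the least abundant of the 41 genes per length, read 2.62, 1.80, 1.69 and 3.53 CPM in DMSO and 0.754, 0.873, 0.364 and 0.805 CPM with BPA. Its fall was 3.39-fold (log2 -1.76 ± 0.38, adjusted p = 0.000985). POLA2 shares 35.1% of its exonic bases with AP000944.2 on the same strand in GENCODE 29. How reads from shared bases were counted is not given, so the level of POLA2 is uncertain. POLE2, POLA1, POLE and POLD1 fell by log2 values of -1.49, -1.14, -1.01 and -0.71. PRIM1, the catalytic primase subunit (log2 -0.67 ± 0.30, adjusted p = 0.0905), and POLD3, a subunit of polymerase delta (log2 -0.92 ± 0.45, adjusted p = 0.118), did not pass.

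All 8 clamp and Okazaki genes fell. PCNA, the most abundant of the 41 genes per length, read 290, 206, 133 and 284 CPM in DMSO and 102, 78.6, 73.9 and 121 CPM with BPA. It fell 2.43-fold (log2 -1.28 ± 0.28, adjusted p = 0.000939), with the highest BPA library below the lowest of DMSO. FEN1, the nuclease that trims Okazaki fragments, read 75.5, 56.5, 41.8 and 80.0 CPM in DMSO and 24.2, 23.2, 17.1 and 34.0 CPM with BPA, a fall of 2.57-fold (log2 -1.36 ± 0.29, adjusted p = 0.000666). RPA2, a subunit of the single-strand binding protein, read 31.8, 33.3, 26.1 and 35.1 CPM in DMSO and 15.1, 15.0, 14.9 and 19.6 CPM with BPA. It fell 1.96-fold (log2 -0.97 ± 0.13, adjusted p = 3.88e-06). LIG1, the ligase that joins the fragments, fell by a log2 value of -1.32. The clamp loader genes RFC2, RFC3, RFC4 and RFC5 had the narrowest range, from -0.96 to -0.76.

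The E2F genes fell as well. E2F1 read 65.1, 40.2, 45.2 and 78.0 CPM in DMSO and 25.1, 19.4, 20.9 and 36.3 CPM with BPA, a fall of 2.25-fold without overlap (log2 -1.17 ± 0.30, adjusted p = 0.00354). E2F2 read 9.10, 4.82, 3.28 and 12.0 CPM in DMSO and 1.73, 1.54, 0.761 and 2.97 CPM with BPA, 4.11-fold lower (log2 -2.04 ± 0.52, adjusted p = 0.00355). Of the genes with an E2F match in the promoter window, 19 of 21 fell with BPA, with a median log2 fold change of -1.14 over the 21. Of those with a window but no match, 12 of 15 fell, with a median of -1.20. RRM2 and TK1, which fell deepest, were among the genes without a match. Whether E2F binding has a part in the falls was not tested.

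The replicate numbers paired the BPA and DMSO libraries, and with the number as a block 39 of the 41 genes fell, against 21.4% of all tested genes. CDC6 (adjusted p = 0.0338), MCM6 (0.0309), PRIM1 (0.0211) and POLD3 (0.0228) passed in that fit, and ORC6 (0.261) and DBF4 (0.608) did not. Of the 35 calls, 26 were kept under all 17 alternatives. The other 9 (MCM3, MCM5, MCM7, GINS3, CDC7, POLD1, POLE, RFC2 and RFC3) were all lost without DMSO replicate 4, and some of them without DMSO replicate 1 or BPA replicate 1, 2 or 3 (29, 31, 30 and 29 genes called). Without DMSO replicate 1 or BPA replicate 1, 2 or 3, 30.3%, 28.7%, 27.4% and 29.8% of all tested genes were called.

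None of the 41 genes passed the threshold with the other 4 compounds. With PFOS all 41 log2 fold changes were positive, from 0.13 to 0.52, with a median of 0.30 against 0.02 for all genes. None was called by edgeR or DESeq2, none reached an unadjusted p under 0.05, and 0.0159% of all tested genes were called in either direction. By number, 41, 39, 40 and 31 genes were higher than DMSO in replicates 1 to 4, and 30 genes were higher in all 4 pairs. PRIM2 was the single gene whose PFOS libraries (21.5, 18.8, 18.9 and 21.2 CPM) all lay above the DMSO libraries, as did those of 1.15% of all tested genes, with a log2 fold change of 0.22 ± 0.13 (adjusted p = 1.00). The best known genes read 0.24 for RRM2, 0.28 for TK1, 0.27 for RRM1, 0.21 for TYMS, 0.31 for MCM2, 0.32 for PCNA, 0.13 for E2F1, 0.46 for CDT1 and 0.30 for GMNN (log2 fold change).

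With CdCl2 against water all 41 log2 fold changes were negative, from -0.68 to -0.03, with a median of -0.38. None was called by edgeR or DESeq2, 1 had an unadjusted p under 0.05, and 0.0212% of all tested genes were called in either direction. That gene was CDT1, at 91.2, 61.4, 103 and 133 CPM in water and 61.1, 69.9, 58.9 and 74.2 CPM with CdCl2 (log2 -0.56 ± 0.26, adjusted p = 0.898). The next by p were POLD1 (log2 -0.43 ± 0.26) and GINS1 (-0.62 ± 0.38), both at an adjusted p of 0.898. RRM2 read -0.46, TK1 -0.61, RRM1 -0.34, TYMS -0.32, MCM2 -0.59, PCNA -0.13, E2F1 -0.47 and GMNN -0.19 (log2 fold change). By number, 40 of 41 genes were lower than water in replicates 1 and 3 and 37 in replicate 4, while 38 were higher in replicate 2, in which the water library was the lowest of its group for all 41 genes.

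With TCDD 34 of the 41 log2 fold changes were negative and 7 positive, with a median of -0.22. None was called by edgeR or DESeq2, where 9.25% of all tested genes were, and 3 had an unadjusted p under 0.05. ORC6 read 51.7, 36.4, 42.2 and 50.1 CPM with TCDD against 38.0, 20.5, 13.5 and 35.6 CPM in DMSO (log2 0.75 ± 0.30, adjusted p = 0.131), and 3 of its TCDD libraries lay above all of DMSO. E2F1 read 24.0, 33.0, 35.1 and 49.1 CPM against 65.1, 40.2, 45.2 and 78.0 CPM (log2 -0.70 ± 0.29, adjusted p = 0.159), and it was the only gene lower than DMSO in all 4 same-numbered pairs. E2F1 passed without the low-count filter (log2 -0.73, adjusted p = 0.0356) and against water in place of DMSO (log2 -0.92, adjusted p = 0.0495). With the replicate number as a block in edgeR, ORC6 (adjusted p = 0.00256) and E2F1 (0.0261) passed, as did 14.4% of all tested genes. The numbers did not pair TCDD with DMSO. RPA2 read 25.6, 20.3, 28.5 and 27.8 CPM against 31.8, 33.3, 26.1 and 35.1 CPM (log2 -0.31 ± 0.13, adjusted p = 0.159). The values were -0.26 for RRM2, -0.20 for TK1, -0.26 for RRM1, -0.05 for TYMS, -0.15 for MCM2, -0.16 for PCNA, 0.10 for CDT1 and 0.29 for GMNN (log2 fold change).

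With TBTCl the median was -0.13, with 30 negative and 11 positive values between -0.53 and 0.20. None was called by edgeR or DESeq2, none had an unadjusted p under 0.05, and 0.143% of all tested genes were called. The lowest p values belonged to POLA1 (log2 -0.53 ± 0.33, adjusted p = 0.445), GMNN (0.20 ± 0.16, 0.543) and ORC1 (-0.38 ± 0.32, 0.582). RRM2 read -0.12, TK1 0.14, RRM1 -0.17, MCM2 -0.22, PCNA 0.07, E2F1 -0.04 and CDT1 0.16 (log2 fold change), and TYMS read -0.00. DMSO against water gave a median of -0.15 with 40 negative values, none called by edgeR or DESeq2, none with an unadjusted p under 0.05, and 0.00% of all tested genes called. CDT1 (-0.33 ± 0.26), PRIM1 (-0.31 ± 0.30) and MCM3 (-0.33 ± 0.32) had the lowest p there, each with an adjusted p of 1.00. The values of the remaining best known genes ran from -0.22 for E2F1 to -0.08 for RRM2.

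**Figure D3:**
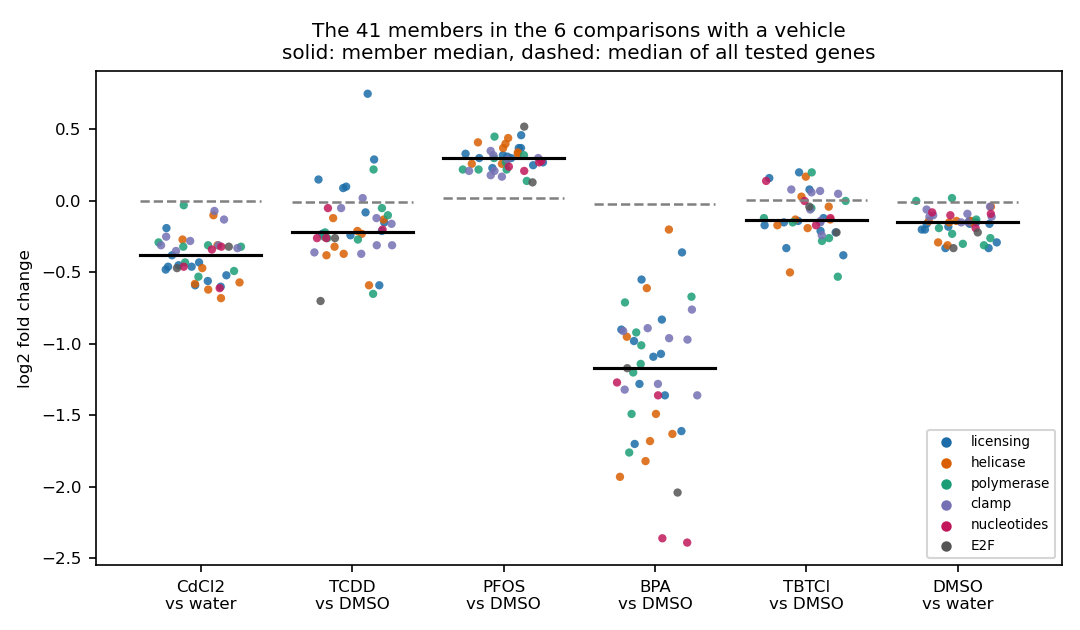
Log2 fold changes (vertical axis) of the 41 genes in the 6 comparisons with a vehicle, coloured by role; solid bars are the medians of the 41 genes and dashed bars those of all tested genes. The BPA cloud has its median at -1.17, PFOS lies wholly above 0 with a median of 0.30, and CdCl2 lies wholly below 0 with a median of -0.38.

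Direct contrasts tested whether the compounds differed. BPA libraries were lower than those of PFOS in 37 genes (15.3% of all tested genes were lower), than TCDD in 29 (20.4%) and than TBTCl in 26 (18.1%), and no gene was higher in any of the 3, where 15.3%, 17.8% and 16.7% of all tested genes were. The difference in RRM2 was -2.63 ± 0.34 (log2) from PFOS, -2.13 ± 0.33 from TCDD and -2.27 ± 0.33 from TBTCl (adjusted p = 1.91e-06, 1.63e-05 and 1.38e-05). E2F1 was lower with BPA than with PFOS (log2 -1.30 ± 0.30, adjusted p = 0.00157), and between BPA and TCDD it read -0.47 ± 0.29 (adjusted p = 0.212). ORC6, which did not pass against DMSO, was lower with BPA than with TCDD (log2 -1.11 ± 0.30, adjusted p = 0.00515).

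TCDD libraries were lower than those of PFOS in PRIM2 (log2 -0.50 ± 0.13, adjusted p = 0.0132) and RPA2 (-0.48 ± 0.13, adjusted p = 0.0138), 2 genes of 41 where 4.71% of all tested genes were lower. Without TCDD replicate 2 neither passed (8.45% of all tested genes called in either direction), and without TCDD replicate 4 there were 4 (11.5%). No gene passed between TCDD and TBTCl (3 at an unadjusted p under 0.05, 0 by DESeq2, against 12.8% of all tested genes called). None passed between TBTCl and PFOS (6 at an unadjusted p under 0.05, 0 by DESeq2, against 0.249%). The change with BPA minus the change with CdCl2 was below 0 in 39 of the 41 genes, and in 6 of them it passed the test, as it did below 0 in 7.81% of all tested genes. These were PRIM2 (log2 -1.17 ± 0.19, adjusted p = 0.000169), RPA2 (-0.90 ± 0.18, 0.00156), RRM2 (-1.93 ± 0.45, 0.00475), GINS4 (-1.22 ± 0.39, 0.0309), TYMS (-0.95 ± 0.31, 0.0344) and PCNA (-1.15 ± 0.39, 0.0427). With the replicate number as a block there were 20, against 12.4% of all tested genes. Leaving out single libraries gave 3 to 12, with 3 without water replicate 2 or 3, CdCl2 replicate 4, DMSO replicate 1 or 4 or BPA replicate 2 or 3, and 12 without DMSO replicate 3. In these fits 11.6% to 18.9% of all tested genes were called in either direction.

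**Figure D4:**
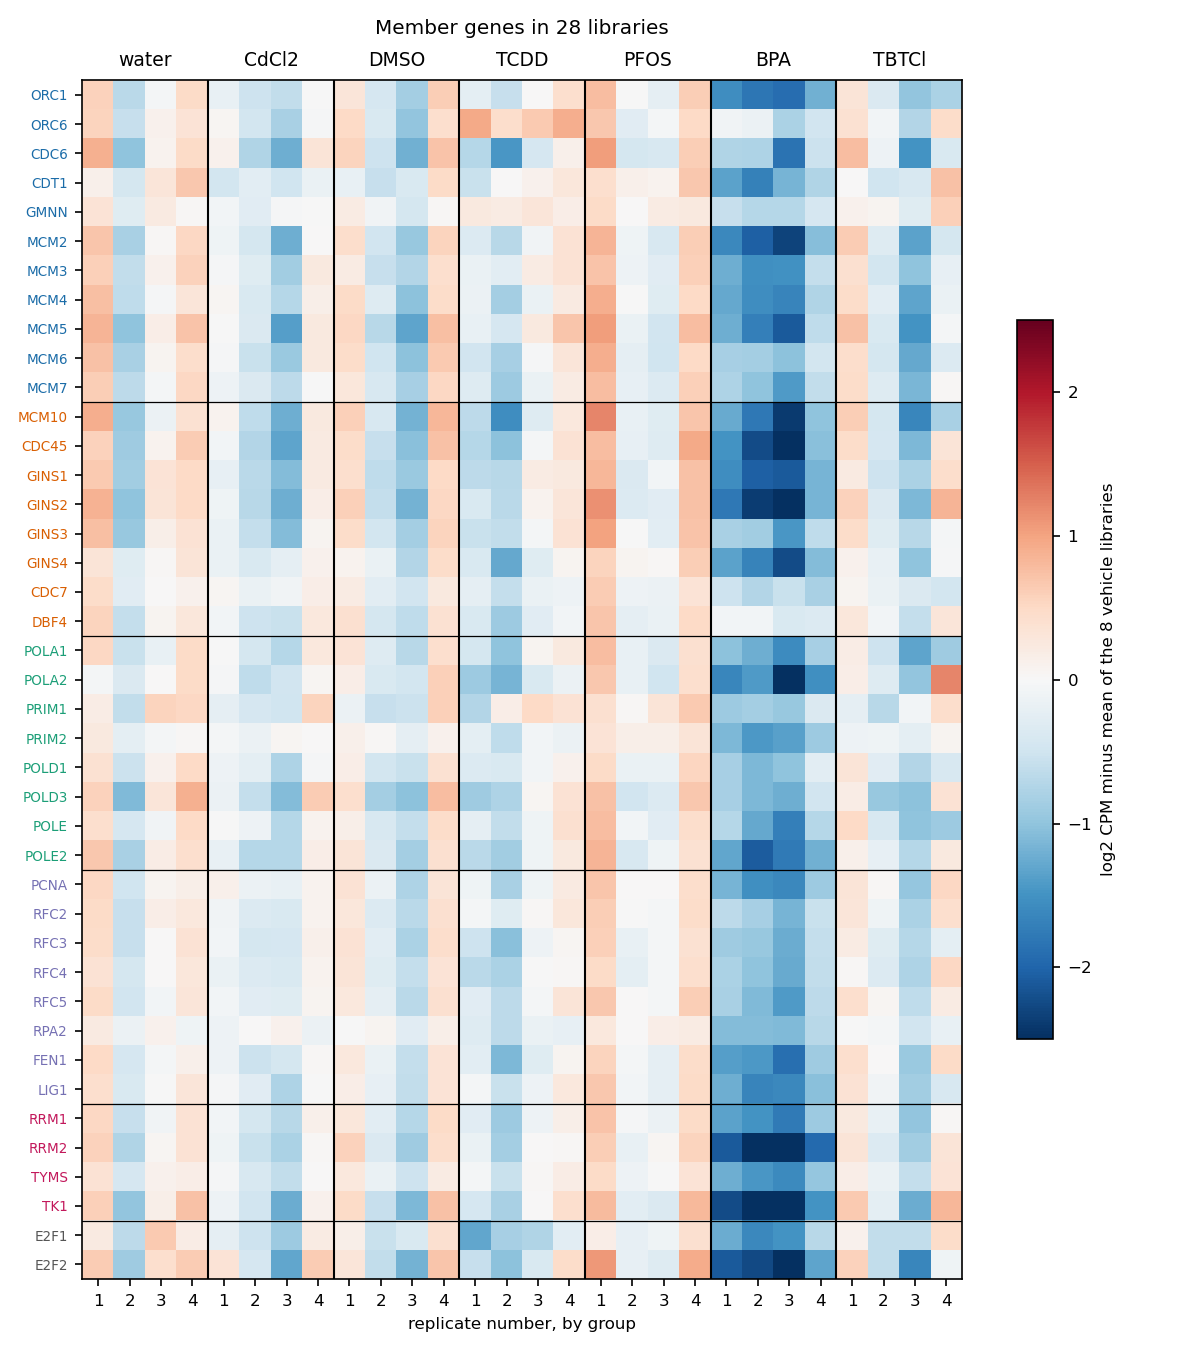
Level of each of the 41 genes (rows, ordered by role) in each of the 28 libraries (columns, by group and replicate number), as log2 CPM minus the mean of the 8 water and DMSO libraries; the deepest colours stand for values at or beyond the ends of the scale. The BPA columns are blue in nearly every row, and in PFOS, DMSO and water the columns of replicates 1 and 4 are redder than those of 2 and 3 in most rows.

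The 41 genes varied together from library to library within a group. Replicates 1 and 4 both lay above replicates 2 and 3 in 41 of 41 genes in PFOS, 40 in DMSO, 37 in CdCl2, 35 in water, 35 in BPA and 29 in TBTCl, but in 5 in TCDD. The median ratio of the highest to the lowest library of a group was 2.22 in water, 1.76 in CdCl2, 2.26 in DMSO, 2.04 in TCDD, 1.96 in PFOS, 1.79 in BPA and 2.36 in TBTCl. It reached 4.82 for CDC6 in TBTCl and was as low as 1.10 for GMNN in TCDD. In the BPA group the level of the 41 genes, as the median log2 distance from the mean of the vehicles, was -1.21, -1.44, -1.59 and -0.75 in replicates 1 to 4. In the other groups the lowest library was TBTCl replicate 3 at -0.92, and PFOS replicate 1 was the highest at 0.69. These patterns were counted for the 41 genes alone, so a trait of these genes cannot be told from one shared by all genes. What set the levels of the replicate numbers was not tested.

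Libraries of the same number differed in ways that the group medians do not show. In TCDD replicate 3, 40 of 41 genes were above DMSO replicate 3, whose level was the lowest of its group in 38 genes, and in TCDD replicates 1, 2 and 4, 39, 32 and 39 genes were below. DMSO replicate 3 was below water replicate 3 in all 41 genes, by a median log2 difference of -0.83. TBTCl replicate 4 split the genes, with differences from DMSO replicate 4 between -1.63 and 0.63. There POLE read 25.8 against 66.1 CPM, MCM10 8.66 against 26.8 CPM, ORC1 10.5 against 27.8 CPM and POLA1 10.3 against 25.4 CPM. In the same library POLA2 read 5.46 against 3.53 CPM, GMNN 101 against 68.1 CPM, GINS2 51.2 against 40.6 CPM and CDT1 138 against 116 CPM. Genes of 1 role thus lay on either side in this library, and the examples were picked after their values were seen.

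How widely a gene varied between libraries also differed by gene. In water the highest library was 1.30 times the lowest for RPA2 and 1.40 times for PRIM2, against 3.99 times for POLD3, 3.70 for CDC6 and 3.69 for GINS2. RPA2 and PRIM2 had the smallest standard errors with BPA (0.13 and 0.14), and POLD3 and CDC6 had log2 changes as large as that of RPA2 (-0.92 and -0.98, against -0.97) but standard errors of 0.45 and 0.48. Across the 41 genes the log2 spread in water and the log2 change with BPA had a Pearson r of -0.35 and a Spearman rho of -0.32. This is a description across genes that share the same libraries.

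**Figure D5:**
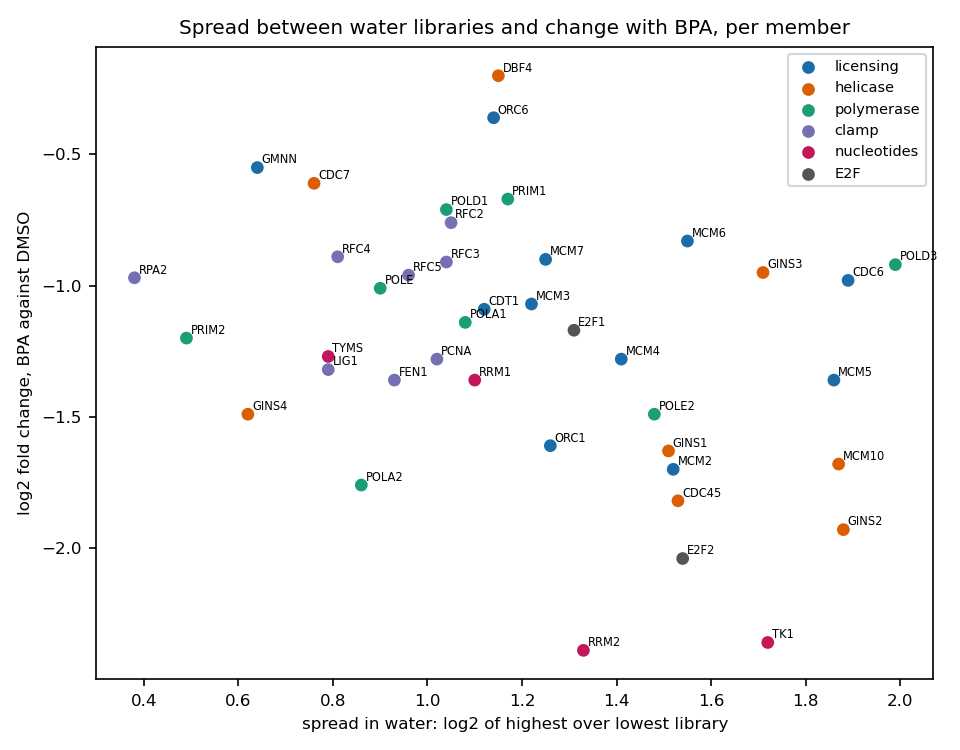
Spread of each of the 41 genes between the 4 water libraries (horizontal axis, log2 of highest over lowest) and its log2 fold change with BPA against DMSO (vertical axis), coloured by role. RPA2 and PRIM2 lie at the left with changes of -0.97 and -1.20, and the genes at the right range from POLD3 and CDC6, with changes of -0.92 and -0.98, to GINS2, MCM10 and TK1, with changes of -1.93, -1.68 and -2.36.

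Per kilobase of exon, PCNA was the most abundant of the 41 genes in DMSO at 155 ± 50.5 CPM per kb (SD, n = 4), followed by TYMS at 61.3 ± 14.9 and MCM3 and MCM7 at 41.7 ± 16.1 and 41.4 ± 16.8. The ranges of TYMS, MCM3 and MCM7 overlapped, and that of PCNA (90.2 to 197) lay above that of TYMS (43.2 to 75.1). The ring subunits, which assemble in equal numbers, ran from 41.7 for MCM3 through 27.1 for MCM2, 16.5 for MCM4 and 10.1 for MCM5 to 7.33 for MCM6 (CPM per kb in DMSO). RRM2 stood at 28.1 ± 12.2 and RRM1 at 15.9 ± 5.63. The lowest were E2F2 at 1.34 ± 0.734 and POLA2 at 0.421 ± 0.150. These lengths are unions of all annotated exons in GENCODE 29, so a gene with long rare exons reads too low. Exons are shared with another gene on the same strand in 6 of the 41 genes and on the opposite strand in 13, among them RRM2 (20.2% with AC007240.1, same strand) and TYMS (39.1% with ENOSF1, opposite strand).

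Of 120 other genes of the pathway in 5 lists, 117 passed the filter, and RNASEH2A, CDKN1C and NUSAP1 did not. The counts of these lists with BPA stand beside 17.6% of all tested genes lower and 17.3% higher. With BPA the mitotic genes fell most uniformly, with 16 of 17 lower (94.1%), none higher and a median log2 fold change of -1.36. CENPE, a kinetochore motor, averaged 26.9 ± 5.52 CPM in DMSO and 9.80 ± 1.59 CPM with BPA (log2 -1.46 ± 0.18, adjusted p = 1.55e-06). KIF20A, a motor of cytokinesis, averaged 53.2 ± 14.3 and 13.7 ± 3.23 CPM (log2 -1.96 ± 0.28, adjusted p = 8.89e-06). PLK1, a mitotic kinase, did not pass (log2 -0.83 ± 0.36, adjusted p = 0.0740), but did with the replicate number as a block (adjusted p = 0.0160).

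The further replication machinery was less uniform, with 13 of 25 genes lower (52.0%), 2 higher (RNASEH2B and POLD4) and a median of -0.57. TOP2A, the topoisomerase that untangles DNA, averaged 294 ± 101 CPM in DMSO and 65.8 ± 21.8 CPM with BPA (log2 -2.16 ± 0.32, adjusted p = 1.42e-05). DNA2, an Okazaki nuclease, averaged 9.86 ± 2.66 and 4.22 ± 0.478 CPM (log2 -1.22 ± 0.24, adjusted p = 0.000284). The remaining origin recognition genes ORC2, ORC3, ORC4 and ORC5 did not pass, and ORC4 did with the block (log2 0.24 ± 0.09, adjusted p = 0.0433). Of the genes of fork protection and replication-coupled chromatin, 10 of 16 (62.5%) were lower and 1 higher, with a median of -1.03. The histone chaperone ASF1B averaged 23.5 ± 9.53 and 5.27 ± 2.80 CPM (log2 -2.15 ± 0.35, adjusted p = 3.95e-05), whereas ASF1A, its close relative, was the gene that rose. DSCC1, of the alternative clamp loader, changed by -1.43 ± 0.24 (adjusted p = 7.18e-05).

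Of the other nucleotide genes, 3 of 30 were lower with BPA (SHMT1 and DUT among them) and 5 higher (IMPDH1, GART, DHODH, ATIC and ADSL), with a median of -0.04, so neither count stood above the share of all tested genes. Blocking on replicate number gave 6 lower and 6 higher, where 21.4% of all tested genes were lower. IMPDH1, of guanine nucleotide synthesis, averaged 57.0 ± 2.16 CPM in DMSO and 84.2 ± 3.43 CPM with BPA and rose by 0.56 ± 0.08 (log2, adjusted p = 9.84e-06). GART, ATIC and ADSL act in purine synthesis and DHODH in pyrimidine synthesis, and all serve RNA as well as DNA. Of RB and E2F control genes, 12 of 29 (41.4%) were lower and 2 (6.90%) higher, with a median of -0.60. SKP2, which directs the CDK inhibitor CDKN1B to degradation, averaged 58.6 ± 10.2 and 18.0 ± 5.94 CPM (log2 -1.70 ± 0.20, adjusted p = 4.15e-07). E2F6, a repressor of the E2F family, rose from 29.5 ± 2.76 to 56.2 ± 4.84 CPM (log2 0.93 ± 0.11, adjusted p = 7.45e-07), in the same libraries in which E2F1 and E2F2 fell. The CDK inhibitors CDKN1A (0.28 ± 0.27, adjusted p = 0.441) and CDKN1B (0.20 ± 0.13, adjusted p = 0.235) did not pass.

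With TCDD 8 of the 117 pathway genes passed (6.84%), a share below the 9.25% of all tested genes. SKP2 averaged 35.9 ± 4.97 CPM against 58.6 ± 10.2 CPM in DMSO (log2 -0.71 ± 0.19, adjusted p = 0.0163), and CDKN1B rose by 0.47 ± 0.13 (adjusted p = 0.0194). CCND2, a D-type cyclin, averaged 0.196 ± 0.0937 against 1.38 ± 0.794 CPM (log2 -2.85 ± 0.63, adjusted p = 0.00296), at levels near the floor of 3 counts. CDK6 (0.57 ± 0.17) and POLD4 (0.67 ± 0.20) rose. PPAT (-0.44 ± 0.13, adjusted p = 0.0355), GART (-0.38 ± 0.12, adjusted p = 0.0416) and CMPK1 (-0.34 ± 0.10, adjusted p = 0.0391), genes of purine and pyrimidine nucleotide synthesis, fell. With scaling to library size alone 5 of the 117 passed (8.61% of all tested genes), and without the low-count filter 3 did (4.12%). CdCl2, PFOS, TBTCl and DMSO against water gave 0 calls in these lists by edgeR and by DESeq2, with 1, 1, 9 and 0 of the 117 genes at an unadjusted p under 0.05.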

How the data were processed

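Poly(A) RNA was sequenced as paired reads from directional libraries, per the labels' protocols. The authors deposited whole-number read counts, 1 value per gene and library. Per the submitters' processing notes the genome was GRCh38 and the tools included STAR, HTSeq, fastp and DESeq2. Their versions, the gene annotation and how HTSeq treated strand are not given in the sources used. The last of the 63140 entries was left out because the file ends within it.

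All 28 libraries entered 1 fit of 7 group means in edgeR 4.0.16 (limma 3.58.1, R 4.3.3), with TMM factors of 0.861 to 1.07, filterByExpr at a minimum count of 10, the quasi-likelihood test and 21 residual degrees of freedom. The tested genes held 99.96% of all counts, with a common biological coefficient of variation of 22.0%. P-values were adjusted with the Benjamini-Hochberg method over all 18849 genes, and a gene was called at an adjusted p under 0.05. A p-value sets the difference between groups against the spread between libraries within groups, estimated over all 28 libraries. Without the block, that spread also takes in differences between replicate numbers. A standard error is the log2 fold change divided by the square root of F. The edgeR fit without a block, with its contrast of BPA and DMSO, was tested on simulated data. The simulated libraries were drawn independently, with few changed genes and no shift shared by a replicate number, so such shifts were not covered.

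The members and the lists of other genes were chosen with earlier results of these data known. Per role, the called member with the largest change and the one with the smallest p are named, with any against the common direction. With fewer than 3 called, the 3 lowest p are named. RRM2, TK1, RRM1, TYMS, MCM2, PCNA, E2F1, CDT1 and GMNN have values in every comparison with a vehicle. Of each pathway list with 3 or more calls, the 2 lowest p are named, except for 1 gene that is not reported here. Any further gene given with values was picked to describe its class after the values were seen.

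The replicate numbers were taken to pair the samples where every correlation of same-numbered deviations from the group means exceeded 0.1. They ranged from 0.173 to 0.269 for BPA and DMSO, 0.123 to 0.540 for CdCl2 and water, 0.181 to 0.627 for DMSO and water, 0.249 to 0.528 for TBTCl and DMSO and 0.425 to 0.593 for PFOS and DMSO. TCDD and DMSO, at -0.212 to 0.439, were not paired. Nor were TCDD and PFOS, TCDD and TBTCl, BPA and TCDD, or BPA and PFOS (-0.052 to 0.344 for the last). The block fit took in all 28 libraries, so it also covers comparisons that were not paired. Alternatives were DESeq2 1.42.0, the replicate block, other scalings and filters, fewer groups in the fit, water as control and each library left out. CPM per kilobase used the union of exons in GENCODE 29, and promoters came from the RefSeq table.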

Additional observations from a re-analysis of the deposited data

Results flagged for a closer look

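In 161 sets of 4 libraries (the 23 genes named by rule in 7 groups), the highest or lowest library was compared with its neighbours by Dixon's ratio of gap to range. Its 95% critical value was exceeded in 2 of the 161 sets, fewer than the about 1 set in 20 that chance alone gives. PRIM1, the catalytic primase subunit, stood at 7.35 CPM in BPA replicate 4, against 4.90 to 5.21 CPM in the other BPA libraries. RPA2, of the single-strand binding protein, stood at 19.6 CPM in the same library, against 14.9 to 15.1 CPM in the others. BPA replicate 4 was also the BPA library in which the 41 genes together were highest, at a median log2 distance of -0.75 from the vehicles.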

How the results depend on the processing

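No called value changed direction. With BPA 35 genes were called under DESeq2, 36 with upper-quartile scaling or library size alone, 39 without the low-count filter or with the replicate block, and 26 to 36 when single libraries were left out. Of all tested genes, 37.0% were called in either direction under DESeq2, 34.9% with upper-quartile scaling and 34.4% with library size alone. The share was 13.5% without the filter, 42.9% with the block and 27.4% to 31.9% without single libraries. The median log2 fold change of all genes with BPA was -0.15 with upper-quartile scaling and -0.14 with library size alone, against -0.02 with TMM, and that of the 41 genes was -1.29 and -1.30. The other pathway genes then split into 6 higher and 64 lower and into 6 higher and 62 lower, against 10 and 54. With TCDD, where no member was called, the replicate block gave 2 (14.4% of all tested genes), no filter 1 (4.12%) and water as control 1 (9.08%). These were E2F1 (log2 -0.66, adjusted p = 0.0261 with the block, -0.73 and 0.0356 without the filter, -0.92 and 0.0495 against water, edgeR) and ORC6 (0.83, adjusted p = 0.00256 with the block). The numbers did not pair TCDD with DMSO, PFOS, BPA or TBTCl, so block results for TCDD do not rest on a pairing. Of the other 117 pathway genes, 8 passed with TCDD, 15 with the block, 5 with library size alone and 3 without the filter. The shares of all tested genes were 9.25%, 14.4%, 8.61% and 4.12%. Between TCDD and PFOS the 2 genes became 4 with DESeq2 (15.5% of all tested genes) and 11 with the block (19.9%). Without single libraries there were 0 to 4 (8.45% to 13.2%). Between TCDD and TBTCl the block gave 3 genes (19.0%), and leaving out single libraries 0 to 1 (9.60% to 14.0%). The 6 genes of the BPA change minus the CdCl2 change became 20 with the block, 10 with library size alone and 3 to 12 without single libraries. Of all tested genes, 25.6%, 16.6% and 11.6% to 18.9% were then called in either direction. For the other comparisons the block moved no count of the 41 genes, or of the other pathway genes as 1 set, by more than 1.5 times. It moved the lower nucleotide genes with BPA from 3 to 6 and the calls among all genes from 3 to 84 with PFOS, 4 to 28 with CdCl2, 27 to 179 with TBTCl and 47 to 119 between TBTCl and PFOS. Of 28 libraries, 23 had deviations from the group mean that correlated best, on average over other groups, with libraries of their own number. Of the 77 log2 values that were followed, 23 changed sign under some alternative, none of them for BPA. The median of the 41 genes ran from -0.39 to 0.01 with TCDD, -0.29 to 0.11 with TBTCl and -0.36 to 0.03 for DMSO against water without single libraries, but from 0.10 to 0.52 with PFOS and -0.57 to -0.24 with CdCl2. The causes were not tested. Depth limits POLA2 most, at 0.364 CPM in BPA replicate 3.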
